A study of Mus musculus with 6 samples.

Results

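The genes described here are 9 regulators of the primitive streak and nascent mesoderm: the T-box factors T, Eomes and Tbx6, the homeobox factors Mixl1, Gsc, Lhx1 and Evx1, the basic helix-loop-helix factor Mesp1 and the secreted ligand Fgf8. They were taken by symbol from a deposited poly(A) RNA-Seq table of mouse cells, in which they are 9 of 21639 entries, and each symbol matched 1 entry. The rule itself uses no measured value.

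The series holds 6 libraries from 3 embryonic stem cell (ESC) lines, each sampled as ESCs (D0, labelled Day0) and as embryoid bodies (EBs, D3, labelled Day3), with 1 library per line and day. EBs are aggregates that form when ESCs are moved to non-adherent plates without leukemia inhibitory factor. The study asked what the acidic patch of the histone variant H2A.Z, a negatively charged surface of the nucleosome, does for gene expression in ESCs and during differentiation. The H2A.ZWT line (labelled H2AZ WT) carried a doxycycline-inducible, CMV-driven lentiviral transgene for YFP-tagged wild-type H2A.Z, and the H2A.ZAP3 line (labelled H2AZ-AP3) the same transgene with 3 substituted acidic patch residues. Both transgenic lines were made in KH2 ESCs, were sorted for YFP and also carried hairpins against endogenous H2A.Z, so that the knockdown was shared with the H2A.ZKD line (labelled H2AZ KD) and no library without hairpins was analysed here. The labels give the strain of all samples as V6.5 (129SvJaexC57BL/6). ESCs were grown on irradiated fibroblast feeders except in the last passage.

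H2afz, which encodes H2A.Z, was at 279 RPKM (reads scaled to transcript length and to the number of mapped reads) in H2A.ZWT ESCs and at 343 RPKM in the library labelled H2A.ZKD, and in EBs at 258 and 236 RPKM. H2A.ZAP3 had 304 RPKM in ESCs and 394 RPKM in EBs, the EB level being past 1.5-fold that of H2A.ZWT EBs. The table does not separate the endogenous transcript from the transgene, and at D0 the knockdown label is not matched by a lower H2afz level, so the text speaks of the library labelled H2A.ZKD. Of the ESC markers looked for, 8 of 10 were in the table, and all 8 were above 1 RPKM in all 6 libraries. Since each condition has 1 library, no difference within 1 line or 1 day could be set against replicates, and these have no p-value. A limma fit of all 6 libraries with line and day as terms, added after the values were seen, stands after the single comparisons. The depth of each library, worked out from low RPKM values as given in the methods, was about 18100000 to 28600000 reads, with H2A.ZAP3 ESCs the deepest. The intervals below are exact 95% intervals from reads estimated with that depth. They cover counting error only and not the difference between cultures. A gene is counted as higher or lower when log2 of the ratio of RPKM, each with 0.001 added, is past 1.5-fold. In these bulk samples, fewer cells of a type and less RNA per cell cannot be told apart.

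The primitive streak is the transient structure through which epiblast cells leave the epiblast and become mesoderm and definitive endoderm. Nodal and Wnt signals induce it. Eomes and T act early in the streak, Mixl1, Gsc and Lhx1 mark mesendoderm and its anterior part, Mesp1 and Tbx6 follow in cardiac and paraxial mesoderm, and Fgf8 is needed for cells to move away from the streak.

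All 9 genes were low in all 6 libraries. Of their 54 values 46 were under 1 RPKM, 3 were listed at 0, and 23 rested on fewer than 10 estimated reads. The highest was 2.39 RPKM, for Eomes in EBs of the library labelled H2A.ZKD. T, Tbx6, Mixl1, Gsc, Lhx1, Evx1 and Mesp1 were under 1 RPKM in every library, whereas the median entry of the table was between 1.59 and 1.72 RPKM. The RPKM of the 9 genes summed to 3.18 in H2A.ZWT ESCs, 3.71 in the library labelled H2A.ZKD and 2.78 in H2A.ZAP3 ESCs. In EBs the sums were 5.20, 5.22 and 4.45 RPKM in the same order. Eomes alone supplied 33.6% to 45.9% of each sum.

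**Figure D1:**
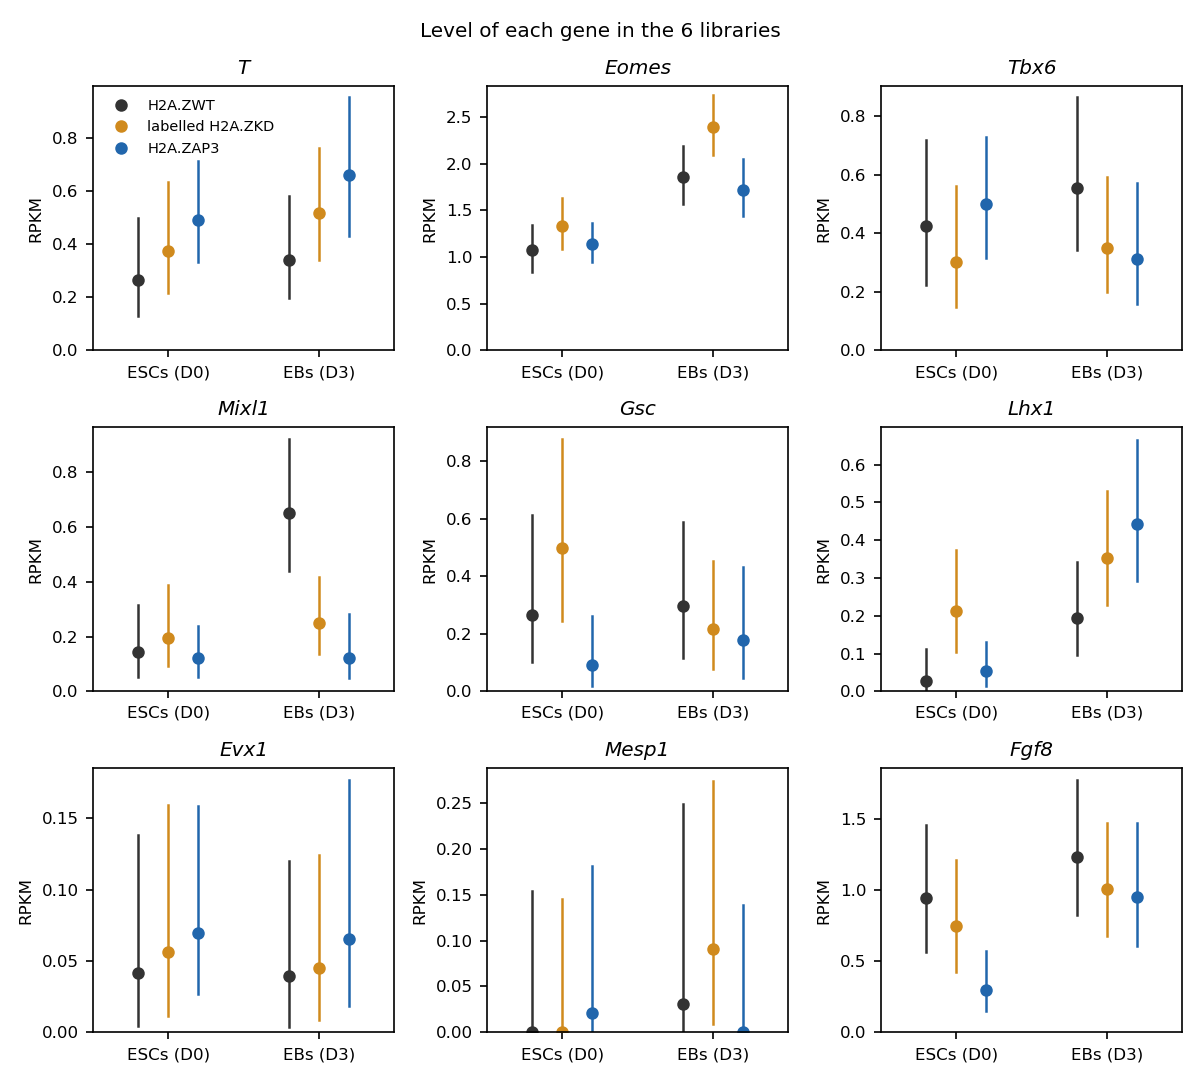
RPKM of each of the 9 genes in ESCs (D0) and EBs (D3) of H2A.ZWT (black), the library labelled H2A.ZKD (orange) and H2A.ZAP3 (blue). Points are single libraries and lines are 95% counting intervals, drawn for a library at 0 up to 3 reads. The intervals of the 3 lines overlap in most panels, and Mixl1 in H2A.ZWT EBs, at 0.651 RPKM, stands above the other 5 libraries.

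Eomes, a T-box activator of the mesendoderm program that is also made in trophoblast and visceral endoderm, was the most abundant member in every library. Its gene lies at chr9:118387307-118395249 on the plus strand of mm9, with 6 exons. Eomes was at 1.07 RPKM in H2A.ZWT ESCs, 1.33 in the library labelled H2A.ZKD and 1.14 in H2A.ZAP3 ESCs, and at 1.86, 2.39 and 1.72 RPKM in the corresponding EBs. All 3 EB libraries were above all 3 ESC libraries. The log2 change from D0 to D3 was 0.80 in H2A.ZWT (interval 0.38 to 1.23), from 72 to 144 estimated reads. It was 0.84 in the library labelled H2A.ZKD (0.49 to 1.21) and 0.60 in H2A.ZAP3 (0.23 to 0.97). Eomes was the one member past 1.5-fold, with an interval that left out no change, in all 3 lines. The H2A.ZAP3 change lay close to the limit of 0.585 and fell under it with 0.1 RPKM added (0.56) or centred on the median entry (0.56). Between lines Eomes stayed within 1.5-fold on both days. The widest gap was between EBs of H2A.ZAP3 and of the library labelled H2A.ZKD (log2 change -0.47, interval -0.80 to -0.15). EBs of the library labelled H2A.ZKD were above H2A.ZWT EBs by 0.36 on the log2 scale (0.05 to 0.68), and H2A.ZAP3 EBs were 0.11 below H2A.ZWT EBs with an interval from -0.47 to 0.24.

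Of 12 markers of extraembryonic endoderm, 12 were past 1.5-fold higher in EBs than in ESCs of H2A.ZWT, 12 in the library labelled H2A.ZKD and 8 in H2A.ZAP3, with none lower, beside 14.1%, 14.0% and 14.7% of all entries higher. Their sum, like Eomes, was higher in EBs of each line, but its order between lines was not that of Eomes. The summed RPKM of the 12 was 53.6 in H2A.ZWT ESCs, 70.6 in the library labelled H2A.ZKD and 184 in H2A.ZAP3 ESCs, and 279, 598 and 303 in the corresponding EBs. Of the 12, between 7 and 9 were above 1 RPKM in ESCs and between 10 and 12 in EBs, while Ttr and Afp, secreted proteins of visceral endoderm, were listed at 0 in H2A.ZWT and H2A.ZAP3 ESCs. The sum and Eomes were both highest in EBs of the library labelled H2A.ZKD, but the H2A.ZAP3 ESCs had a sum more than 3 times that of H2A.ZWT ESCs with an Eomes level 1.06 times as high, and H2A.ZAP3 EBs had a higher sum than H2A.ZWT EBs with a lower Eomes level. Of the trophectoderm markers looked for, 9 of 10 were found. Their sum was 74.0, 37.4 and 38.3 RPKM in ESCs and 101, 115 and 66.4 RPKM in EBs, with Elf5, a defining gene of trophoblast, at 0 in every library. Krt8 and Krt18, keratins of many simple epithelia, supplied most of these sums, and without them the sums were 8.23, 4.78 and 5.38 RPKM in ESCs and 6.03, 4.30 and 3.33 RPKM in EBs. The part of either cell type in the Eomes values was not tested.

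T (Brachyury), the founding T-box factor and the usual marker of the streak, was at 0.264 RPKM in H2A.ZWT ESCs, 0.373 in the library labelled H2A.ZKD and 0.491 in H2A.ZAP3 ESCs. In EBs it was at 0.342, 0.515 and 0.660 RPKM. On both days H2A.ZWT was lowest and H2A.ZAP3 highest, and each line was somewhat higher at D3 than at D0. None of the 3 D3 against D0 changes of T, between 0.37 and 0.47 on the log2 scale, passed 1.5-fold. H2A.ZAP3 was above H2A.ZWT by 0.89 at D0 (-0.18 to 2.10) and by 0.95 at D3 (-0.01 to 1.97). Both differences were past 1.5-fold and both intervals reached no change. The reads of both days were then added, a step taken after the single days were seen. H2A.ZAP3 had 56 estimated reads of T against 25 in H2A.ZWT, a log2 difference of 0.84 (0.14 to 1.58). Such a sum weights each day by library depth. The depth was about 28600000 reads at D0 and 20200000 at D3 in H2A.ZAP3, against 18100000 and 20900000 in H2A.ZWT. The day change therefore enters the summed line difference, and 0.84 lies below both single-day values. The summed intervals cannot separate line from day and are no test of the lines. The sum of both days for the library labelled H2A.ZKD, 41 reads, was 0.55 above H2A.ZWT (-0.20 to 1.33). Over all 9 genes, the summed interval of H2A.ZAP3 against H2A.ZWT left out no change for T, for Mixl1 (log2 change -1.73) and for Fgf8 (-0.91), and that of the library labelled H2A.ZKD for Eomes (0.37), Mixl1 (-0.85) and Lhx1 (1.38). The share of all entries that pass by this summed rule was not taken, so these counts are not a result about the members. The H2A.ZAP3 difference was -0.27 for Mixl1 at D0 and -0.38 for Fgf8 at D3, with intervals that included no change.

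T lies at chr17:8627288-8635361 on the plus strand of mm9 and has 8 exons. The study lists PCR primers for T and Mesp1, which are shown because they mark the parts of both genes that such assays would read. The T forward primer matched chr17:8631591-8631613 in coding exon 6, and its partner had no exact match in this locus of the reference or in the spliced transcript used here. A second pair, for chromatin immunoprecipitation, matched chr17:8627552-8627571 in coding exon 1 and chr17:8627688-8627707 outside the exons, 5′ to 3′ as designed:
T expression forward: GCTCTAAGGAACCACCGGTCATC
T chromatin forward: CTGCGCTTCAAGGAGCTAAC
T chromatin reverse: CTCAGCGGGAAGAAACAAAG

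Tbx6, which directs cells to paraxial mesoderm, lies at chr7:133924997-133929062 on the plus strand. It was at 0.425, 0.301 and 0.499 RPKM in ESCs of H2A.ZWT, the library labelled H2A.ZKD and H2A.ZAP3. In EBs it was at 0.554, 0.348 and 0.312 RPKM in the same order. Among EBs H2A.ZWT was highest and the other two lay near each other. The H2A.ZAP3 EBs were below H2A.ZWT EBs by 0.83 on the log2 scale, with an interval of the difference from -2.04 to 0.30. All 9 comparisons of Tbx6 had intervals that included no change. T was higher and Tbx6 lower in H2A.ZAP3 EBs than in H2A.ZWT EBs.

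Mixl1, a paired-type homeobox factor of the streak, showed the largest difference between lines among the members with an interval that left out no change at D3. Its levels were 0.145, 0.197 and 0.120 RPKM in ESCs of H2A.ZWT, the library labelled H2A.ZKD and H2A.ZAP3. In EBs they were 0.651, 0.249 and 0.123 RPKM. The H2A.ZWT EB library, with 31 estimated reads, was high and the other 5, with 6 to 14 reads, lay close together. The D3 against D0 change of Mixl1 was 2.16 in H2A.ZWT (0.88 to 3.72), 4.49-fold. It was 0.34 in the library labelled H2A.ZKD (-0.97 to 1.73) and 0.03 in H2A.ZAP3 (-1.77 to 1.75). In EBs H2A.ZAP3 was below H2A.ZWT by 2.39 (log2 change -2.39, interval -3.95 to -1.12), and the library labelled H2A.ZKD gave -1.39 (-2.41 to -0.44). Both comparisons share the single H2A.ZWT EB library. At D0 the same differences were -0.27 and 0.44 with intervals that included no change.

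Mixl1 lies at chr1:182623181-182627165 on the minus strand and has 2 exons. Its promoter window, 250 bases before to 50 after the annotated start, was searched for the letters CTTTGAT, the core that TCF/LEF factors of the Wnt pathway bind, and GGTGTGA, the core that T-box factors bind, on both strands. CTTTGAT was in 653 of 20815 windows of the same length (3.14%) and in 2 of the 9 members, Mixl1 and Mesp1. GGTGTGA was in 769 windows (3.69%) and in 1 member, Mesp1. The matches are printed because they lie in the gene with the largest EB difference whose interval left out no change and in the one nearest to 0. They run 5′ to 3′ on the gene's strand, read from the mm9 reference, with the matched letters in capitals. The first base of each match is 62 bases before the Mixl1 start, 31 bases before the Mesp1 start and at base 6 after the Mesp1 start, in that order, and the printed stretches are chr1:182627210-182627238, chr7:86938490-86938518 and chr7:86938454-86938482, all on the minus strand. The last is the T-box core on the opposite strand.
Mixl1 TCF/LEF core: tgcacccacgcCTTTGATggcgccgccgc
Mesp1 TCF/LEF core: gctcgagccggCTTTGATatgctgatgaa
Mesp1 T-box core: aggggcccgctTCACACCtagggctcagg

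A match of letters is a description and not a binding site. The other 7 windows held neither string. The windows differed in composition: Fgf8 had 83.3% G and C and Mixl1 71.0%, against a median of 57.0% over all windows, and Eomes had 47.3%.

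Gsc, a repressor of the anterior streak and organiser, was at 0.266, 0.498 and 0.0926 RPKM in ESCs of H2A.ZWT, the library labelled H2A.ZKD and H2A.ZAP3, and at 0.297, 0.217 and 0.178 RPKM in EBs. These values rested on 3 to 11 estimated reads. The largest gap was between ESC libraries, where H2A.ZAP3 was below the library labelled H2A.ZKD by 2.41 (log2 change -2.41, interval -4.91 to -0.51). Against H2A.ZWT neither line differed on either day by more than the counting interval. Gsc lies at chr12:105709419-105711446 on the minus strand.

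Lhx1, a LIM homeobox factor of the anterior mesendoderm, went from 0.0286 to 0.194 RPKM in H2A.ZWT between D0 and D3. It went from 0.213 to 0.353 RPKM in the library labelled H2A.ZKD and from 0.0543 to 0.443 RPKM in H2A.ZAP3. Each line was higher in EBs, and the order of the EB libraries was the reverse of that of Mixl1, with H2A.ZAP3 highest. The log2 change in H2A.ZAP3 was 3.01 (1.49 to 5.01), from 4 to 25 estimated reads. In H2A.ZWT it was 2.72 with an interval from -0.02 to 8.19, since the ESC library held 1 read. H2A.ZAP3 EBs were above H2A.ZWT EBs by 1.19 (0.11 to 2.36). With both days summed, in a different mix for each line, the difference was 0.95 and its interval reached no change (-0.07 to 2.05). At D0 the library labelled H2A.ZKD was above H2A.ZWT by 2.85 (0.11 to 8.32), again against 1 read. Lhx1 lies at chr11:84332881-84339036 on the minus strand.

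Evx1, an even-skipped homeobox factor of the posterior streak, and Mesp1, which marks the first cardiac mesoderm, were at the limit of detection. Evx1 was between 0.0396 and 0.0696 RPKM, on 2 to 6 estimated reads, and none of its 9 intervals left out no change. Mesp1 was listed at 0 in H2A.ZWT ESCs, in ESCs of the library labelled H2A.ZKD and in H2A.ZAP3 EBs. It was at 0.0212 RPKM in H2A.ZAP3 ESCs and 0.0311 RPKM in H2A.ZWT EBs, 1 estimated read each. The highest Mesp1 value, 0.0909 RPKM in EBs of the library labelled H2A.ZKD, was 2 reads. A count of 0 in H2A.ZWT ESCs allows up to 3 reads, or 0.154 RPKM, which is above every Mesp1 value measured, so no Mesp1 difference was detectable at this depth. Mesp1 lies at chr7:86937128-86938476 and Evx1 at chr6:52263492-52268372 on mm9. The Mesp1 primers matched coding exon 1 at chr7:86937845-86937863 and coding exon 2 at chr7:86937441-86937461:
Mesp1 expression forward: CGCCTGCCTACCCTAGACC
Mesp1 expression reverse: AGGTTTCTAGAAGAGCCAGCA

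Fgf8, the ligand, was the second most abundant member in 5 of the 6 libraries. It was at 0.944 RPKM in H2A.ZWT ESCs, 0.745 in the library labelled H2A.ZKD and 0.300 in H2A.ZAP3 ESCs. In EBs it was at 1.23, 1.01 and 0.948 RPKM. The H2A.ZAP3 ESC library was low and the other 5 lay between 0.745 and 1.23 RPKM. H2A.ZAP3 ESCs gave a log2 change of -1.65 against H2A.ZWT ESCs (-2.92 to -0.48) and of -1.31 against the library labelled H2A.ZKD (-2.61 to -0.08). In EBs the H2A.ZAP3 difference from H2A.ZWT was -0.38 (-1.24 to 0.47). Within H2A.ZAP3, Fgf8 was 1.66 higher at D3 than at D0 (0.52 to 2.90). Fgf8 lies at chr19:45811289-45817374 on the minus strand.

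The H2A.ZAP3 ESC library stood apart in other genes as well. Lefty1 and Lefty2, Nodal antagonists that Nodal itself induces, were at 10.9 and 3.27 RPKM there against 47.8 and 22.1 RPKM in H2A.ZWT ESCs. Fgf5 and Otx2, markers of the primed epiblast, were at 0.106 and 1.37 RPKM against 0.539 and 4.22 RPKM. Of the 8 primed epiblast markers 3 were lower past 1.5-fold and 0 higher, beside 13.9% and 11.1% of all entries. Of the pluripotency factors, Klf2 was at 41.1 against 123 RPKM, Klf4 at 65.9 against 121, Sox2 at 110 against 191 and Dppa3 at 16.6 against 37.9 RPKM, while Pou5f1 was at 540 against 421 RPKM. Esrrb, Zfp42 and Tbx3, the other pluripotency markers found, stayed within 1.5-fold. The summed level of 9 of 10 feeder fibroblast markers found was 56.0 RPKM there, 32.1 in H2A.ZWT ESCs and 27.2 in the library labelled H2A.ZKD, with 6 or 7 of the 9 above 1 RPKM. In EBs that sum was 8.80 to 15.3 RPKM. Thy1, which is not restricted to fibroblasts, was higher in EBs than in ESCs of each line, and without it the sums were 30.4, 24.8 and 54.2 RPKM in ESCs and 6.07, 3.31 and 8.24 RPKM in EBs of H2A.ZWT, the library labelled H2A.ZKD and H2A.ZAP3. The part of these cells in the Fgf8 difference was not tested.

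**Figure D2:**
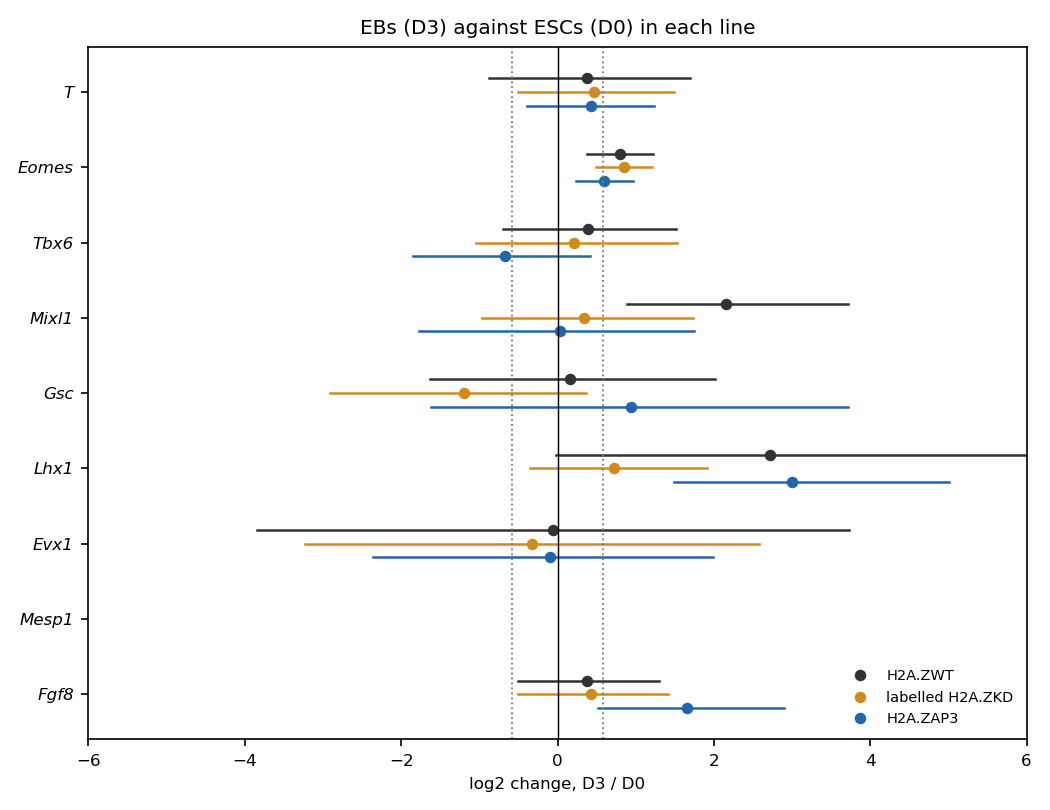
Log2 change of each gene from ESCs (D0) to EBs (D3) in H2A.ZWT (black), the library labelled H2A.ZKD (orange) and H2A.ZAP3 (blue), with 95% counting intervals drawn up to 6 and dotted lines at 1.5-fold. Mesp1 has no point because each change has a library at 0. Eomes lies right of 0 in all 3 lines, whereas the Mixl1 interval leaves out 0 in H2A.ZWT alone.

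Counted over the 9 genes, 4 were higher and none lower in EBs than in ESCs of H2A.ZWT (Eomes, Mixl1, Lhx1 and Mesp1), where 14.1% of all entries of the table were higher and 16.5% lower past 1.5-fold, 30.7% in either direction. The median log2 change of the 9 was 0.38, and that of all entries was 0. In the library labelled H2A.ZKD, 3 were higher (Eomes, Lhx1 and Mesp1) and 1 lower (Gsc), beside 14.0% and 16.2% of all entries, 30.2% in all. In H2A.ZAP3, 4 were higher (Eomes, Gsc, Lhx1 and Fgf8) and 2 lower (Tbx6 and Mesp1), beside 14.7% and 16.3%, 31.0% in all. Entries of low level pass more often: among entries whose higher value lay between 0.02 and 1 RPKM, 67.9%, 67.7% and 67.1% passed in the 3 lines. The members' shares, 4, 4 and 6 of 9, were near or below these. Of the calls, 2 in H2A.ZWT (Eomes and Mixl1), 1 in the library labelled H2A.ZKD (Eomes) and 3 in H2A.ZAP3 (Eomes, Lhx1 and Fgf8) had an interval that left out no change. By that stricter rule 19.7%, 19.3% and 21.7% of the entries above 0 whose annotated transcript ends where the table puts the gene were called in the 3 lines.

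Between lines, H2A.ZAP3 ESCs were higher than H2A.ZWT ESCs for 4 members (T, Lhx1, Evx1 and Mesp1) and lower for 2 (Gsc and Fgf8), beside 11.1% higher and 13.9% lower of all entries, 25.0% in all, and 65.2% of the low entries. H2A.ZAP3 EBs were higher than H2A.ZWT EBs for 3 (T, Lhx1 and Evx1) and lower for 4 (Tbx6, Mixl1, Gsc and Mesp1), beside 10.4% and 11.7%, 22.1% in all, and 61.6% of the low entries. The library labelled H2A.ZKD was higher than H2A.ZWT for 2 members at D0 (Gsc and Lhx1) and lower for none, beside 8.96% and 10.7%, 19.7% in all, and 55.8% of the low entries. At D3 it was higher for 3 (T, Lhx1 and Mesp1) and lower for 2 (Tbx6 and Mixl1), beside 9.41% and 11.3%, 20.7% in all, and 60.4% of the low entries. H2A.ZAP3 was higher than the library labelled H2A.ZKD for 2 members at D0 (Tbx6 and Mesp1) and lower for 4 (Mixl1, Gsc, Lhx1 and Fgf8), beside 13.5% and 13.5%, 27.0% in all, and 64.0% of the low entries. At D3 it was higher for none and lower for 2 (Mixl1 and Mesp1), beside 11.6% and 11.1%, 22.7% in all, and 61.4% of the low entries. The comparisons of 1 day share libraries. Calls of Mesp1 set 1 or 2 estimated reads against 0 or 1, and calls of Evx1 rest on 2 to 6 reads. Of 81 member and comparison pairs in all, 42 passed 1.5-fold, and 14 of these had an interval that left out no change. Of the 80 pairs with a value above 0 in at least 1 library the 14 stand beside 13.9% of such entries with a matched transcript, and beside 13.9% of those of 0.02 to 1 RPKM. Of the 73 pairs above 0 in both libraries they stand beside 15.3%. The members did not move in 1 direction in H2A.ZAP3 EBs: T and Lhx1 were above H2A.ZWT EBs while Mixl1 was below. With 1 RPKM added in place of 0.001, no member passed 1.5-fold in any of the 9 comparisons.

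The change from D0 to D3 was also taken over the 3 lines as pairs, in the limma fit with line and day as terms on log2(RPKM + 0.1). This fit treats the lines as repeats of the day difference, has 2 residual degrees of freedom and puts any difference between lines in that change into its error. Lhx1 was higher at D3 by 1.18 (interval 0.41 to 1.95, limma adjusted p = 0.0923) and Eomes by 0.70 (0.16 to 1.24, adjusted p = 0.132), each in 3 of 3 lines. Mixl1, high in 1 EB library, was higher by 0.62 with an interval from -0.29 to 1.53 (limma adjusted p = 0.382), and T by 0.34 (-0.28 to 0.96). No member passed an adjusted p of 0.05, which 5.20% of 18688 entries did, and 2 members (Eomes and Lhx1) had an unadjusted p under 0.05, as did 23.2% of entries. With 1 RPKM added in place of 0.1, Fgf8 joined them, which gave 3 members beside 4205 of 18688 entries. For H2A.ZAP3 against H2A.ZWT over both days, 0.00% of entries passed the adjusted limit in limma and 5.66% the unadjusted one, with no member among them. With 1 RPKM added in place of 0.1, 2 members, T and Fgf8, were under the unadjusted limit of this limma contrast, as were 1050 of 18688 entries. With 0.1 added T was higher by 0.74 (-0.02 to 1.503), Mixl1 had a log2 change of -0.95 (-2.07 to 0.16) and Fgf8 of -0.86 (-1.81 to 0.08). For the library labelled H2A.ZKD against H2A.ZWT, 0.00% and 3.04% passed, with 1 member, Lhx1, under the unadjusted limit (0.95, interval 0.01 to 1.89), and no member was under it with 0.001 or 1 RPKM added. The differences of Mixl1, Fgf8 and T between lines thus did not pass the test in this fit.

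**Figure D3:**
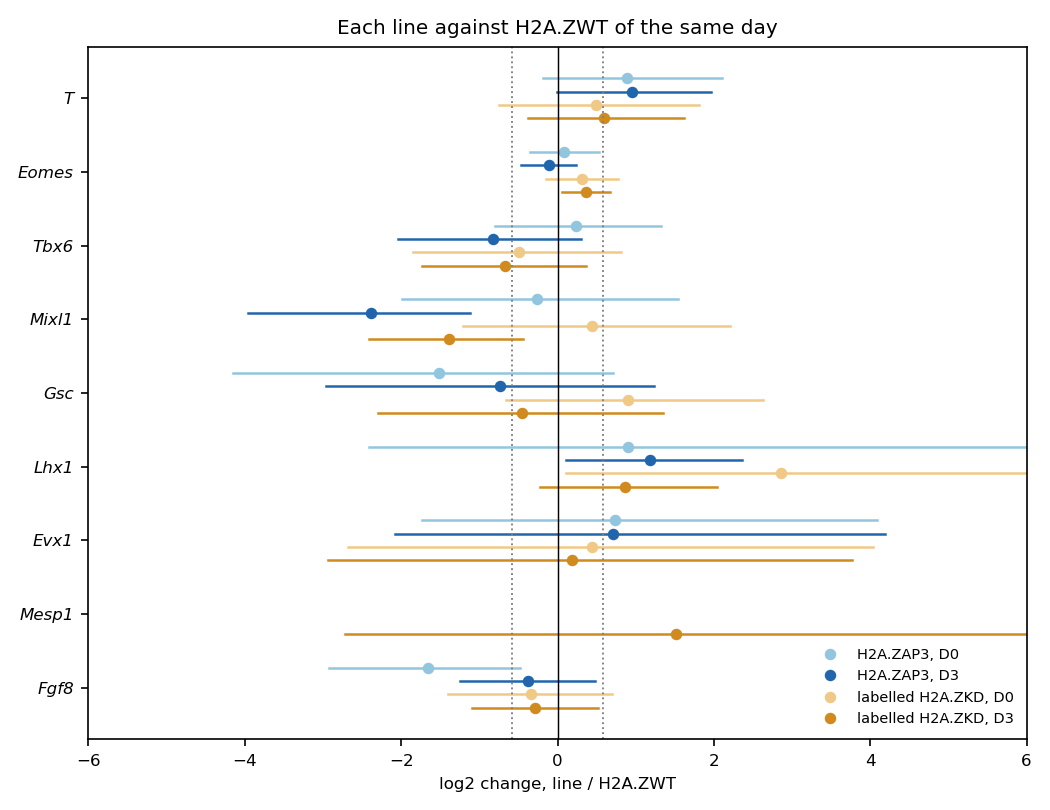
Log2 change of each gene against H2A.ZWT of the same day, for H2A.ZAP3 (blue, paler at D0) and the library labelled H2A.ZKD (orange, paler at D0), with 95% counting intervals drawn up to 6 and dotted lines at 1.5-fold. Mesp1 is drawn only where both libraries hold reads. The intervals of Mixl1 at D3 lie left of 0 for both lines, and that of Fgf8 at D0 lies left of 0 for H2A.ZAP3.

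Most of the signals that induce the streak, other than the Wnt ligands, were above the level of its factors. Among 11 inducing signals, all found, 6 or 7 were above 1 RPKM in each library. Nodal was at 10.4 to 16.8 RPKM, its co-receptor Tdgf1 at 289 to 481 RPKM and the Nodal convertase Furin at 10.1 to 17.3 RPKM. The Wnt ligand Wnt3, which is required for streak formation, was at 0.145 to 0.355 RPKM and lower than T in each library except H2A.ZWT EBs. Wnt3a, Wnt8a and Wnt5b, the other Wnt ligands of the list, were also under 1 RPKM in every library. In H2A.ZWT 3 of the 11 were higher at D3 and 4 lower, with Fgf5 going from 0.539 to 7.34 RPKM and Bmp4, a mesoderm-inducing ligand, from 9.23 to 2.47 RPKM. In the library labelled H2A.ZKD 1 was higher and 2 lower, and in H2A.ZAP3 5 were higher and 3 lower, where 30.7%, 30.2% and 31.0% of all entries passed in either direction in the 3 lines. Fgf5 was higher and Bmp4 lower in EBs of all 3 lines.

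Of 20 effectors and antagonists of these signals, 6 were higher and 3 lower at D3 in H2A.ZWT, 2 and 5 in the library labelled H2A.ZKD, and 5 and 5 in H2A.ZAP3, beside 14.1% and 16.5%, 14.0% and 16.2%, and 14.7% and 16.3% of all entries. Sp5, a direct Wnt target, went from 1.40 to 0.119 RPKM in H2A.ZWT, from 1.94 to 0.116 RPKM in the library labelled H2A.ZKD and from 1.44 to 0.254 RPKM in H2A.ZAP3. Dkk1, a secreted Wnt antagonist, went the other way, from 0.734 to 3.62 RPKM, from 1.82 to 7.03 RPKM and from 1.28 to 3.48 RPKM. Axin2 and Nkd1, other Wnt targets of the list, stayed within 1.5-fold between days in all 3 lines. In H2A.ZWT, the library labelled H2A.ZKD and H2A.ZAP3, Axin2 was at 2.91, 3.29 and 3.25 RPKM in ESCs and 3.17, 2.46 and 2.35 RPKM in EBs. Nkd1 was at 1.34, 1.94 and 1.33 RPKM in ESCs and 1.26, 1.51 and 1.75 RPKM in EBs.

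Of 36 other genes of the streak and nascent mesoderm, 35 were found, and 15 to 18 were above 1 RPKM in each library. Msgn1 and Ripply2, genes of presomitic mesoderm, and Evx2 were listed at 0 in all 6. At D3 against D0, 11 were higher in each line, and 13, 10 and 9 were lower in H2A.ZWT, the library labelled H2A.ZKD and H2A.ZAP3, beside 14.1% and 16.5%, 14.0% and 16.2%, and 14.7% and 16.3% of all entries. Of those with at least 1 RPKM in either library, 9 of 21 were higher and 6 lower in H2A.ZWT, beside 12.4% and 10.6% of such entries. In the library labelled H2A.ZKD 9 of 19 were higher and 4 lower, beside 12.4% and 9.86%, and in H2A.ZAP3 6 of 21 were higher and 6 lower, beside 11.2% and 13.1%. In H2A.ZWT the largest increases, ranked with 1 RPKM added, were those of Otx2, from 4.22 to 22.3 RPKM, Sox17, from 0.974 to 5.84 RPKM, Gata4, from 3.24 to 13.7 RPKM, and Gata6, from 2.96 to 11.1 RPKM. Foxa2, a factor of the anterior streak and endoderm named here outside that ranking, went from 0.420 to 2.50 RPKM. Otx2, Sox17, Gata4 and Gata6 are also anterior or endoderm genes, and 3 of these 4 are in the extraembryonic endoderm list above. Hand1, of lateral mesoderm, was at 1.75 RPKM in H2A.ZWT ESCs and 0.0922 RPKM in EBs. In ESCs, 15 of the 35 were higher and 5 lower in H2A.ZAP3 than in H2A.ZWT, beside 11.1% and 13.9% of all entries and 65.2% of the low entries in either direction. In the same comparison, with the same shares of all entries, 9 of the 12 extraembryonic endoderm markers and 6 of the 9 feeder markers were higher, and Gata4, Gata6 and Sox17 are on both the streak and the endoderm list. The part of these cells in the streak list's count was not tested. Of the 20 streak list genes with at least 1 RPKM in either library, 10 were higher and 2 lower, beside 7.79% and 6.07% of such entries, among them Gata4 at 12.1 against 3.24 RPKM and Pdgfra, a receptor of mesoderm and fibroblasts, at 10.2 against 4.71 RPKM. In EBs 11 were higher and 5 lower in H2A.ZAP3, beside 10.4% and 11.7% of all entries and 61.6% of the low entries in either direction. Of the 18 with at least 1 RPKM, 2 were higher and 2 lower, beside 4.20% and 5.98%, with Kdr, the VEGF receptor of early blood and vessel mesoderm, at 1.36 against 0.142 RPKM. The library labelled H2A.ZKD had 6 higher and 4 lower in ESCs, beside 8.96% and 10.7% of all entries, and 11 higher and 4 lower in EBs, beside 9.41% and 11.3%. Of the 17 with at least 1 RPKM it had 3 higher and 3 lower in ESCs, beside 3.37% and 4.65%, and 5 and 0 of 17 in EBs, beside 3.71% and 4.88%.

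**Figure D4:**
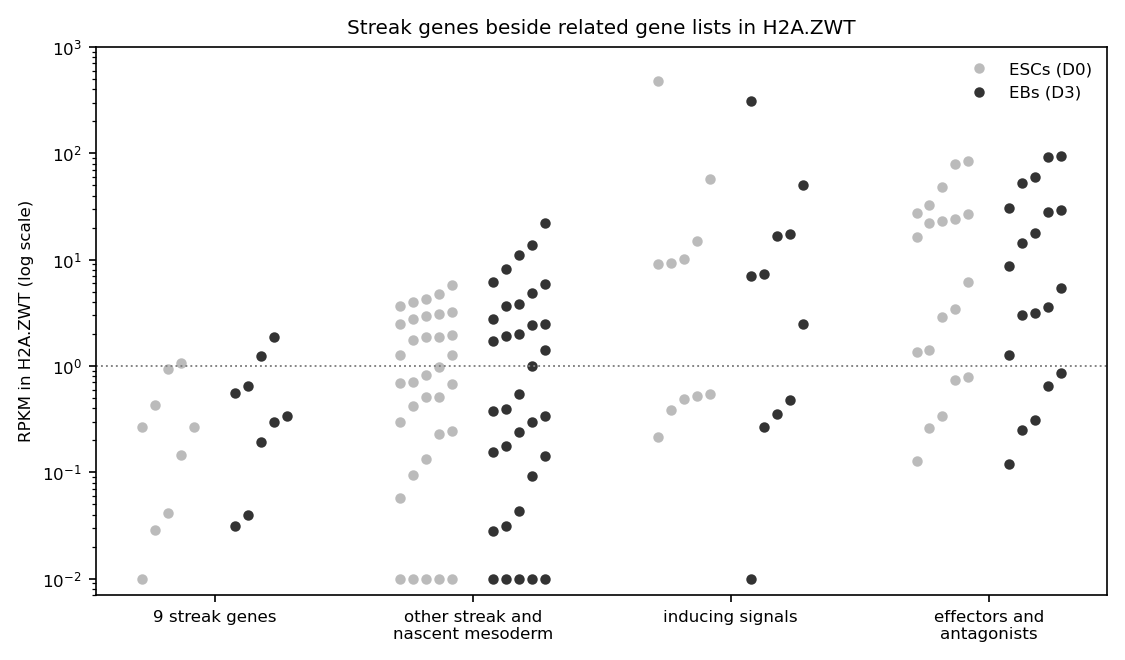
RPKM on a log axis in H2A.ZWT ESCs (grey) and EBs (black) for the 9 streak genes and 3 related lists. Each point is 1 gene in 1 library, values under 0.01 RPKM are drawn at 0.01, and the dotted line is 1 RPKM. In EBs 2 of the 9 streak genes are above 1 RPKM, against 7 of the 11 inducing signals.

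The primed epiblast, the tissue from which the streak arises, was followed by 8 markers, all found. Their summed level was 87.2, 101 and 70.1 RPKM in ESCs and 197, 205 and 229 RPKM in EBs of H2A.ZWT, the library labelled H2A.ZKD and H2A.ZAP3. The 8 pluripotency markers found summed to 1209, 1197 and 1076 RPKM in ESCs and 961, 783 and 921 RPKM in EBs, and 4 of the 8 were lower past 1.5-fold in H2A.ZAP3 ESCs than in H2A.ZWT ESCs, beside 13.9% of all entries and 6.07% of those with at least 1 RPKM. The 8 markers of anterior visceral endoderm and organiser summed to 58.1, 82.2 and 22.8 RPKM in ESCs and 130, 117 and 176 RPKM in EBs. Lefty1 supplied most of each sum except that of H2A.ZAP3 ESCs, where it was at 10.9 RPKM. Without it the sums were 10.3, 13.8 and 11.9 RPKM in ESCs and 34.99, 41.7 and 29.6 RPKM in EBs. The 8 neural markers summed to between 12.6 and 24.1 RPKM. In each line the primed epiblast sum was higher and the pluripotency sum lower in EBs than in ESCs, while the 9 streak genes summed to at most 5.22 RPKM.

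The T pattern over the 6 libraries was compared with that of 1606 genes of sufficient level and range, by Pearson's r of log2(RPKM + 1), as a description over 6 points. The 8 most alike were Snord65 (r = 0.956), Nckap1l (0.930), Cnr1 (0.902), Fam84b (0.859), Mir1901 (0.853), Car2 (0.820), Gm5177 (0.817) and Fam176a (0.814). Car2, carbonic anhydrase 2, went from 6.51 RPKM in H2A.ZWT ESCs to 17.6 RPKM in H2A.ZAP3 EBs, with T lowest and highest in the same libraries. None of the 8 is a streak gene on the lists used here. Among the members, r with T was 0.73 for Lhx1, 0.67 for Evx1 and 0.44 for Eomes, and below 0 for Gsc (-0.52), Tbx6 (-0.41), Mixl1 (-0.35) and Fgf8 (-0.19). The libraries share their line and day, and most of these values rest on few reads.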

How the data were processed

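Poly(A) RNA of 6 mouse cultures was sequenced single-end. The authors aligned reads to mm9 and deposited RPKM values per gene. The submitters' processing notes name TopHat 1.14, Bowtie 0.12.7 and Cufflinks 1.3.0. The table also holds log2 ratios between samples made by the authors, which were not used. The members and the gene lists were chosen with earlier results of these data known.

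From the deposited RPKM, log2 ratios were computed after adding 0.001, and a change past 1.5-fold was counted. Relative depth was estimated from the ratios of low values between libraries and absolute depth from the value of 1 read in the pooled low values, tested on simulated data, and turned into reads with the annotated mm9 transcript nearest to each deposited locus, its ends set to that locus. Intervals are exact Poisson (one library) or exact binomial (ratios). List genes named with values have at least 1 RPKM in a compared library and are past 1.5-fold, at most 5 per list and comparison by change with 1 added. The signal ranges, Axin2, Nkd1, Foxa2, genes at 0 and the H2A.ZAP3 ESC and marker values were chosen after values were seen. Alternatives were other additions (0.1, 1), a 2-fold limit, a 1 RPKM minimum, centring, and, chosen after seeing the data, a minimum of 10 reads, untrimmed lengths, sums without Lefty1, Thy1 or Krt8 and Krt18, both days summed, and a limma fit (3.58.1, R 4.3.3, trended prior) with line and day as terms on entries above 0, adjusted by Benjamini-Hochberg and tested on simulated data. The changed entries of that limma simulation lay above the level of every member and carried no counting error. It therefore gives no power for the members. Python 3.11.15, numpy 2.4.6, pandas 2.3.3 and scipy 1.17.1 were used.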

Additional observations from a re-analysis of the deposited data

Results flagged for a closer look

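Some members moved in opposite directions under the same comparison. For each the difference between the changes was not tested, since each rests on single libraries. Gsc was lower in EBs than ESCs of the library labelled H2A.ZKD (log2 change -1.19, interval -2.92 to 0.36) and higher in H2A.ZAP3 (0.93, interval -1.62 to 3.71), a difference of -2.13 on 3 to 11 estimated reads per library, and both intervals include no change. Mesp1 was higher at D3 in H2A.ZWT (5.01 with 0.001 added) and lower in H2A.ZAP3 (-4.47), a difference of 9.48, and the H2A.ZAP3 against H2A.ZWT change at D0 and at D3 differed by the same 9.48. With the library labelled H2A.ZKD in place of H2A.ZWT both Mesp1 differences were 10.99. Each Mesp1 change sets 1 or 2 estimated reads against a value listed at 0, so its size is set by the 0.001 added and is not a fold change.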

How the results depend on the processing

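The number of members past 1.5-fold depended on how low values were treated. With 1 RPKM added before the logarithm it was 0 in each of the 9 comparisons, and with a minimum of 1 RPKM it was 1 (Eomes) in each D3 against D0 comparison and 0 in the other 6. With 0.1 added it was 2 for D3 against D0 in H2A.ZAP3, 3 for H2A.ZAP3 against H2A.ZWT at D0 and 4 at D3, 2 for the library labelled H2A.ZKD against H2A.ZWT at D3, and 3 for H2A.ZAP3 against that library at D0. At 2-fold it was 2 and 3 for D3 against D0 in the library labelled H2A.ZKD and in H2A.ZAP3, 3 at D0 and 3 at D3 for H2A.ZAP3 against H2A.ZWT, and 1 and 2 for the library labelled H2A.ZKD against H2A.ZWT. With a minimum of 10 estimated reads, chosen after seeing the data, it was 2 at D0 and 4 at D3 for H2A.ZAP3 against H2A.ZWT, and 1 for H2A.ZAP3 against the library labelled H2A.ZKD at D3. No share of all entries was taken with 0.1 or 1 RPKM added, at 2-fold or with 10 reads. The member counts under those settings therefore cannot be set against the table as a whole. Of the 8 genes most like T, 4 stayed among the 8 with 0.1 added. With 1 RPKM added, the Mixl1 change from D0 to D3 in H2A.ZWT was 0.53 and its H2A.ZAP3 against H2A.ZWT difference at D3 -0.56. No member past 1.5-fold changed direction under these alternatives. Centring kept the counts within 1.5 times but took Eomes out of the calls for H2A.ZAP3 (5 in place of 6). In the limma fit that pairs the days within lines and the lines within days, 0 members passed the adjusted limit with 0.1, 0.001 or 1 RPKM added, while the entries called for D3 against D0 were 971, 1105 and 376. Depth limits Mesp1 and Evx1, which had at most 6 estimated reads in any library.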
